A study of Homo sapiens with 8 samples.

Results

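H3K27ac, the histone acetylation that marks active promoters and enhancers, was examined around 10 genes of bone morphogenetic protein (BMP) signalling in human colonic epithelial cells with and without the acetyltransferase CREBBP. The 10 genes were chosen as one pathway and comprise the ligands BMP2, BMP4 and BMP7, the receptor BMPR1A, the secreted antagonists GREM1 and NOG, and the target genes ID1, ID2, ID3 and ID4. The rule that defines them uses no measured value, although the genes were chosen with earlier results of these data known. Every peak overlapping the GENCODE gene body plus 50 kb on either side was taken, and peaks that overlapped or touched were merged over the 6 libraries. This gave 99 of the 143733 merged intervals of the genome, spread over 10 of 19689 protein-coding genes.

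The series holds 3 WT and 3 CREBBP-KO libraries of H3K27ac ChIP-seq, with 1 peak list per library. The cells of both groups are HCEC-1CT, a line immortalized with CDK4 and hTERT, and both groups carry a doxycycline-inducible Cas9, which was used with a guide against CREBBP to make the CREBBP-KO cells. The labels describe 3 independently grown populations of each cell type. The study's methods name the CREBBP-KO cells of the ChIP-seq as monoclonal but elsewhere describe populations pooled from several clones, with parental subclones pooled to match. Which of these gave the libraries is not clear from the sources used here, and for a single clone its own traits and the loss of CREBBP could not be told apart. The p-values measure the spread between these populations. A peak list cannot show the loss of a protein, so the knockout was not checked. There were 93567, 92891 and 86163 peaks in the WT libraries, compared with 111697, 105017 and 99008 after loss of CREBBP. The lists give no read counts, so depth is unknown. For colonic epithelial cells, the defining markers were largely without a promoter peak. Of 10 epithelial and colonic genes, 2 (EPCAM and KRT8) had one in all 6 libraries, KRT18 had one in 5 libraries, and the other 7, among them CDH1, CDX2, VIL1 and HNF4A, had none. The EPCAM peak was weak, at 2.092, 2.598 and 2.723 times local background in WT and 3.855, 3.472 and 2.925 times in CREBBP-KO. KRT8 and KRT18 had the same value as each other in each WT library. None of the 10 genes had a promoter interval strong enough for the limma test used below. All 7 mesenchymal genes examined, such as VIM, COL1A1 and ZEB1, had a promoter peak in all 6 libraries, and 3 of them (COL1A1, COL1A2 and ZEB1) ranked higher in CREBBP-KO by limma, as did 25.9% of all tested promoter intervals. PTPRC, an immune marker, had none, and PECAM1, an endothelial marker, had one in the 3 CREBBP-KO libraries.

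BMP ligands bind a complex of type I and type II receptors, of which BMPR1A is a type I member, and the receptors phosphorylate SMAD1, SMAD5 and SMAD9, which enter the nucleus with SMAD4. The ID genes are among the best known direct targets of these SMADs and encode inhibitors of basic helix-loop-helix transcription factors. GREM1 and NOG bind the ligands outside the cell and keep them from their receptors, and in the colon such antagonists are made mainly by stromal cells around the crypt base, while BMP activity increases towards the lumen.

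RefSeq promoter sequences (GRCh38.p14, which is hg38) were matched for 7 of the 10 genes, namely BMP4, BMPR1A, GREM1, ID1, ID2, ID3 and ID4. Those of GREM1, ID1 and ID3 are shown because their peaks are described in most detail, and that of ID4 because it carried no peak in any library. Each run holds the 250 bases before the start site, read 5′ to 3′ on the strand of the gene. They lie at chr15:32717754-32718003 (plus strand, over an exon of the antisense RNA gene GREM1-AS1), chr20:31605039-31605288 (plus strand), chr1:23559502-23559751 (minus strand) and chr6:19837120-19837369 (plus strand). Capitals mark matches to GGCGCC, a GC-rich element that SMADs can bind, on either strand.
GREM1 promoter: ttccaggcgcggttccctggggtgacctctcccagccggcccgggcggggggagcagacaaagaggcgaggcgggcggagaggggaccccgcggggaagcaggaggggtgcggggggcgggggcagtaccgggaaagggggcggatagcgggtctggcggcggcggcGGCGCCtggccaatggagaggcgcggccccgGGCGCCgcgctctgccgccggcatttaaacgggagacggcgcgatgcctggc
ID1 promoter: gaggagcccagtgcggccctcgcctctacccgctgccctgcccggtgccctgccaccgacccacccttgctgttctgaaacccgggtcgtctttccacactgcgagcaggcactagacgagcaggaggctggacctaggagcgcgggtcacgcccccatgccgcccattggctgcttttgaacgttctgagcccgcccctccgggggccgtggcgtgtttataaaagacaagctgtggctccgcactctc
ID3 promoter: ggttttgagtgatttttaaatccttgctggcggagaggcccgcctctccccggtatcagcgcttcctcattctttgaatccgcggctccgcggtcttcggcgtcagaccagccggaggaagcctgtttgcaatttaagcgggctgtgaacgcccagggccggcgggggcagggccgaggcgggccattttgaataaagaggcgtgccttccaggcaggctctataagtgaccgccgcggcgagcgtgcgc
ID4 promoter: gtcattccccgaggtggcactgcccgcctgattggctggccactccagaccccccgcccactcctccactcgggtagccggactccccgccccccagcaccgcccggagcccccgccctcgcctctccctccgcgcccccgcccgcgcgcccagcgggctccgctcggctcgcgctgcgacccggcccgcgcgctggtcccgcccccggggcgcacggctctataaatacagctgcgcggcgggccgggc

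Both matches in GREM1 lie close to the start, with their first bases 83 and 52 bases before it. The BMP4 promoter that starts furthest upstream held 1 match, and the other promoters of the 7 genes held none. Of 35116 RefSeq promoters of this length, 16.38% hold GGCGCC. The cyclic AMP response element TGACGTCA (1.646% of promoters) and the AP-1 site TGANTCA (6.573%) were not found in any promoter of the 7 genes. The GC content of the 250 bases was 76.8% for GREM1, 66.0% for ID1, 62.0% for ID3 and 78.8% for ID4, and the median over all RefSeq promoters was 58.0%.

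The distal interval that ranked furthest up and the one that ranked furthest down in CREBBP-KO are shown as the 300 bases around the highest summit, on the plus strand of hg38. The first is intergenic at chr15:32705177-32705476, upstream of GREM1. The second is intronic in BMPR1A at chr10:86779096-86779395.
GREM1 upstream interval: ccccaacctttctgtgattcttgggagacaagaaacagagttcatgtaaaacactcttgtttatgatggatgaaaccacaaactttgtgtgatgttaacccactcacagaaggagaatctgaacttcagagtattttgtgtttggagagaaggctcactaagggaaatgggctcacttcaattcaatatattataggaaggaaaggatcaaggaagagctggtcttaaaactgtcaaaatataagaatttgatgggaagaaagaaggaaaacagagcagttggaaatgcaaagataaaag
BMPR1A intronic interval: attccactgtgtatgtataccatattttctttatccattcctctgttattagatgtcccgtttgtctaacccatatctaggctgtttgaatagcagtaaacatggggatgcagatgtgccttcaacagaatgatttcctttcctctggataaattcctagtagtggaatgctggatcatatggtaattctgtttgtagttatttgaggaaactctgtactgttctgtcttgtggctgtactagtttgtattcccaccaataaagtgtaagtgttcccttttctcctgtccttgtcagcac

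Neither run holds any of the 3 motifs. Their GC contents were 37.7% and 39.0%, beside a median of 44% over 23277 windows of the same length at tested intervals away from promoters. Of these windows, 3.592% hold GGCGCC, 0.09022% TGACGTCA and 11.38% TGANTCA. The only motif match in the distal intervals that were called was a TGANTCA site 88 bases to the left of the summit of the interval at -48.27 kb of ID2.

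In what follows, a fold is the deposited height of a peak over its local background, and a percentile is the rank of that fold within its own list, with 100 for the highest. A distance is counted from the main GENCODE start in the direction of transcription, so that negative values lie upstream. A rank shift is CREBBP-KO minus WT in the normal score of an interval's rank (in SD units, with its SE), fitted with limma over 34864 intervals that had a peak in all 6 libraries and a fold of at least 5 in all 3 libraries of 1 genotype. An interval was called at a Benjamini-Hochberg adjusted p under 0.05. Ranks are relative within a library, so a general rise or fall of H3K27ac would not show in a shift. A higher rank thus need not mean more acetylation. For CREBBP-KO cells the paper reports a moderate fall of H3K27ac by mass spectrometry, of borderline significance. By immunofluorescence it reports a significant but small one. By ChIP-seq it reports that most H3K27ac peaks were unaffected, with the few differences mainly in peaks of low magnitude. That result rests on read counts, a fold-change cut and a false discovery rate under 0.0001. The calls here rest on ranks, with no cut on the size of a shift and a looser threshold. The shares called here therefore cannot be set against the paper's share of changed peaks.

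The ligand genes stood nearly bare of H3K27ac. BMP7 (chromosome 20, 57168753 to 57266641, minus strand), a ligand with roles in kidney and epithelial tissue, had no peak in 197.9 kb in any library. BMP4 (chromosome 14, 53949736 to 53958761, minus strand), a ligand of the mesenchyme, had none in the 3 WT libraries and 1, 2 and 1 in the CREBBP-KO libraries. One of these, at -42.13 kb (53998661 to 54000380), was present in all 3 CREBBP-KO libraries and no WT library, at folds of 3.89, 3.53 and 3.89 and at percentiles of 46.7, 37.1 and 46.3. It thus lay below the middle of each list, and no BMP4 interval reached the fold needed for the test. BMP2 (chromosome 20, 6767686 to 6780246, plus strand), the third ligand, had a promoter peak in CREBBP-KO 2 alone (fold 3.61, percentile 39.7) and 1 weak interval in all 6 libraries at -49.03 kb, at percentiles of 38.7, 35.5 and 13.5 in WT and 51.5, 21.8 and 67.2 in CREBBP-KO, which overlap. These starts are not poor in GC, at 61.6% for BMP2, 56.5% for BMP4 and 68.2% for BMP7 within 1 kb of the start, beside a median of 56.0% over 19688 genes.

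ID4 (chromosome 6, 19837370 to 19842197, plus strand), the ID gene best known from neural and mammary tissue, likewise had no promoter peak. Its only interval lay at -32.31 kb (19803428 to 19805600), inside the long non-coding RNA gene LNC-LBCS, with 70.3% GC and 35 CpG dinucleotides in the central 300 bases, and was present in all 6 libraries. Its folds were 18.0, 14.6 and 14.0 in WT and 12.8, 11.8 and 11.5 in CREBBP-KO, with no overlap, and its percentiles were 94.2 ± 2.25 (SD, n = 3) and 88.3 ± 2.36 (SD, n = 3). This interval ranked lower in CREBBP-KO by limma (shift -0.66, SE 0.17, adjusted p = 0.0052). It was called in every one of the 15 alternative fits. Promoters were taken from protein-coding starts alone, so whether this interval is a promoter of LNC-LBCS was not examined. Among all 19689 coding genes, 61.69% had a promoter peak in all 6 libraries and 32.25% had none, so the 3 genes without any (BMP4, BMP7 and ID4) belong to a large class.

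The 6 other genes had a promoter peak in every library, in the order BMPR1A, GREM1, ID3, ID2, ID1 and NOG in both genotypes. BMPR1A stood at percentile 97.5 ± 0.652 in WT and 98.7 ± 0.664 in CREBBP-KO (SD, n = 3 each), with overlapping values (two-sided exact permutation test, p = 0.2). In WT, BMPR1A lay apart from GREM1 and ID1 from NOG, while GREM1, ID3, ID2 and ID1 overlapped with their neighbours in the order. In CREBBP-KO, GREM1 overlapped with BMPR1A and lay apart from ID3, and ID2 overlapped with ID1. With 3 libraries against 3, the exact test cannot go below p = 0.1.

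**Figure D1:**
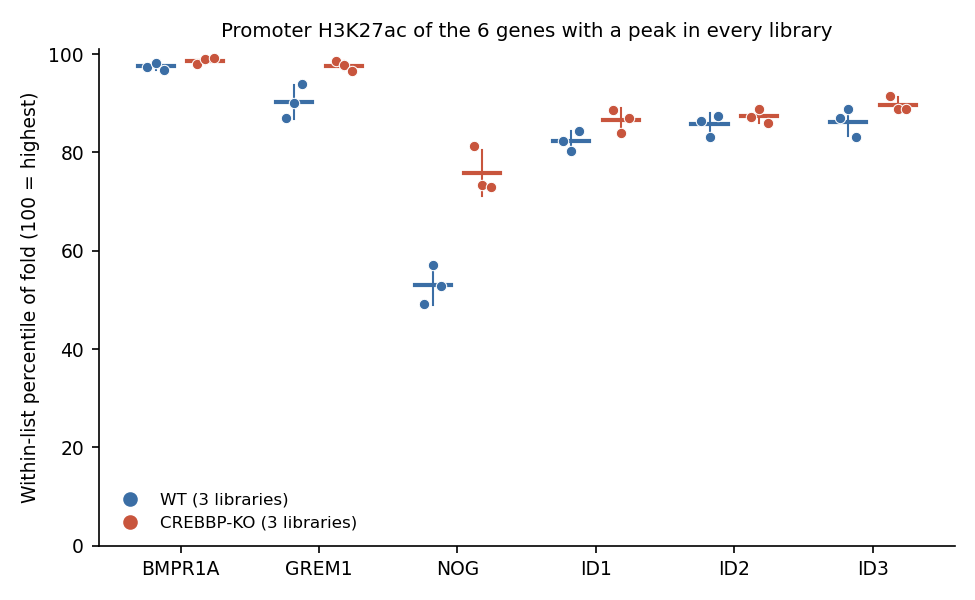
Within-list percentile of the highest promoter peak (vertical axis, 100 = highest fold of a list) for the 6 genes with a promoter peak in all 6 libraries. Points are libraries, bars are means and thin lines are 1 SD, with WT on the left and CREBBP-KO on the right of each gene. NOG and GREM1 show the widest separation, from 53.0 to 75.9 and from 90.3 to 97.7, while ID1, ID2 and ID3 stand between 80.2 and 91.4 in every library.

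Of the 6 promoters, those of the antagonist genes were the ones that ranked higher in CREBBP-KO. GREM1 (chromosome 15, 32718004 to 32745106, plus strand) had promoter folds of 11.2, 12.3 and 15.3 in WT and 23.4, 22.3 and 20.4 in CREBBP-KO. Every CREBBP-KO library lay above every WT library, and the percentile went from 90.3 ± 3.43 to 97.7 ± 1.01 (SD, n = 3; exact permutation test, p = 0.1). By limma the promoter interval, 32715013 to 32726284, ranked higher in CREBBP-KO (shift 0.81, SE 0.18, adjusted p = 0.0014). Among the promoters of all coding genes with a peak in all 6 libraries, GREM1 stood above 60.3% in WT and above 85.6% in CREBBP-KO.

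NOG (chromosome 17, 56593699 to 56595611, plus strand), which encodes noggin, had promoter folds of 4.23, 4.91 and 4.65 in WT and 8.34, 6.79 and 6.94 in CREBBP-KO. The groups did not overlap, and the percentile was 53.0 ± 4.01 in WT and 75.9 ± 4.68 in CREBBP-KO (SD, n = 3; exact permutation test, p = 0.1). The interval, 56592615 to 56598453, ranked higher in CREBBP-KO by limma (shift 1.06, SE 0.28, adjusted p = 0.0058), the largest upward shift among the 30 tested intervals of the 10 windows. It entered the test through its CREBBP-KO folds alone, since no WT library reached a fold of 5, and an interval that enters this way can hardly be called in the other direction. Without a fold filter its shift was 0.72 (SE 0.21) and it was still called. Of all 4884 intervals that entered through CREBBP-KO alone, 49.16% ranked higher and 1 interval lower. Even in CREBBP-KO, NOG stood above only 10.9% of the promoters with a peak in all 6 libraries, compared with 5.34% in WT.

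The percentiles have to be read beside those of all genes, which also differed between the genotypes. Over the 12147 coding genes with a promoter peak in all 6 libraries, the median percentile was 87.4 in WT and 91.2 in CREBBP-KO. All 3 CREBBP-KO libraries lay above all 3 WT libraries in 45.0% of these genes and below them in 7.71%. Of the 6 promoters here, 3 (GREM1, NOG and ID3) lay above and 0 below. The limma shift compares ranks among the same intervals in each library, and by this measure 2 of the 6 promoter intervals ranked higher and 0 lower, beside 25.9% and 8.98% of all 11570 tested promoter intervals (34.9% in either direction).

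The ID genes, by contrast, were not called at their promoters. ID1 (chromosome 20, 31605283 to 31606515, plus strand) had promoter folds of 9.51, 8.77 and 10.4 in WT and 11.5, 10.0 and 11.9 in CREBBP-KO, which overlap, and a shift of 0.14 (SE 0.19, adjusted p = 0.58 by limma). ID3 (chromosome 1, 23557926 to 23559501, minus strand) had folds of 11.2, 11.7 and 9.99 in WT and 13.2, 12.4 and 13.0 in CREBBP-KO. Its CREBBP-KO folds were all above WT, the lowest percentile in CREBBP-KO (88.8) passed the highest in WT (88.8) by less than 0.1, and its percentile was 86.3 ± 2.89 in WT and 89.7 ± 1.48 in CREBBP-KO (SD, n = 3; exact permutation test, p = 0.1), but relative to the other intervals the shift was 0.12 (SE 0.18, adjusted p = 0.61 by limma). With -log10 p in place of the fold, the percentile of ID3 differed by -0.23.

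ID2 (chromosome 2, 8678845 to 8684461, plus strand) had an interval at each of its coding starts, separated by a gap of under 1 kb that holds the main start. Over the upstream start, 8677895 to 8681697, folds were 11.0, 9.66 and 11.7 in WT and 10.7, 12.4 and 11.4 in CREBBP-KO, and the shift was -0.02 (SE 0.18, adjusted p = 0.94 by limma). The weaker interval just past the main start, 8682074 to 8684047, had folds of 3.39, 3.22 and 4.55 in WT and 4.57, 4.39 and 5.68 in CREBBP-KO. These overlap slightly and the interval was below the fold needed for the test, although its percentiles of 30.5, 26.6 and 51.3 in WT were all below those of 58.7, 54.5 and 66.1 in CREBBP-KO. None of the 6 libraries had a peak over the 250 bases before the main start. A small interval at 3.32 kb (8684974 to 8685839) had a peak in the 3 CREBBP-KO libraries, at folds of 2.92, 2.87 and 2.93, and in no WT library. With the interval at BMP4 it made 2 of 99 intervals found in all CREBBP-KO and no WT libraries, beside 2.66% of all merged intervals, and 0 of 99 showed the opposite, beside 1.08%.

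The promoter peaks of ID3 and ID1 differed in shape between the genotypes, while those of ID2 did not separate. At ID3, each WT library had 1 unbroken peak, 8.94, 9.28 and 9.18 kb wide, that began between -4.13 and -3.74 kb and ended between 5.15 and 5.19 kb. Each CREBBP-KO library had a break upstream of the start, between -2.16 and -1.59 kb in CREBBP-KO 1, between -2.22 and -1.85 kb in CREBBP-KO 2 and between -2.18 and -1.73 kb in CREBBP-KO 3, and the highest peak was 6.75, 5.32 and 6.94 kb wide. The break fell at nearly the same place in all 3 libraries. CREBBP-KO 2, the narrowest, had a further break between 3.47 and 3.75 kb.

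ID1 also had an upstream break in each CREBBP-KO library and in no WT library. Its highest peak was 4.64, 5.34 and 6.55 kb wide in WT and 3.87, 3.20 and 3.53 kb wide in CREBBP-KO. In CREBBP-KO the upstream break lay between -1.84 and -1.33 kb, between -2.00 and -1.27 kb and between -1.86 and -1.41 kb, where all 3 WT libraries had continuous peak. ID1 had a second break downstream of the start in both genotypes, between 2.04 and 3.08 kb in WT 1, between 2.11 and 3.05 kb in WT 2 and between 1.93 and 3.15 kb in the CREBBP-KO libraries. WT 3, whose peak was the widest, had no downstream break.

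NOG showed the reverse. In WT its promoter peak was 1.54, 1.58 and 1.82 kb wide and ended between 1.24 and 1.54 kb past the start, with 1 or 2 separate smaller peaks between 2.22 and 4.30 kb. In CREBBP-KO a single peak of 5.75, 5.56 and 5.84 kb began between -1.08 and -0.80 kb, ended between 4.72 and 4.75 kb and covered the whole gene. All sequence under peaks in the NOG window amounted to 2.64, 3.56 and 3.76 kb in WT and 6.03, 5.56 and 5.84 kb in CREBBP-KO (exact permutation test, p = 0.1).

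**Figure D2:**
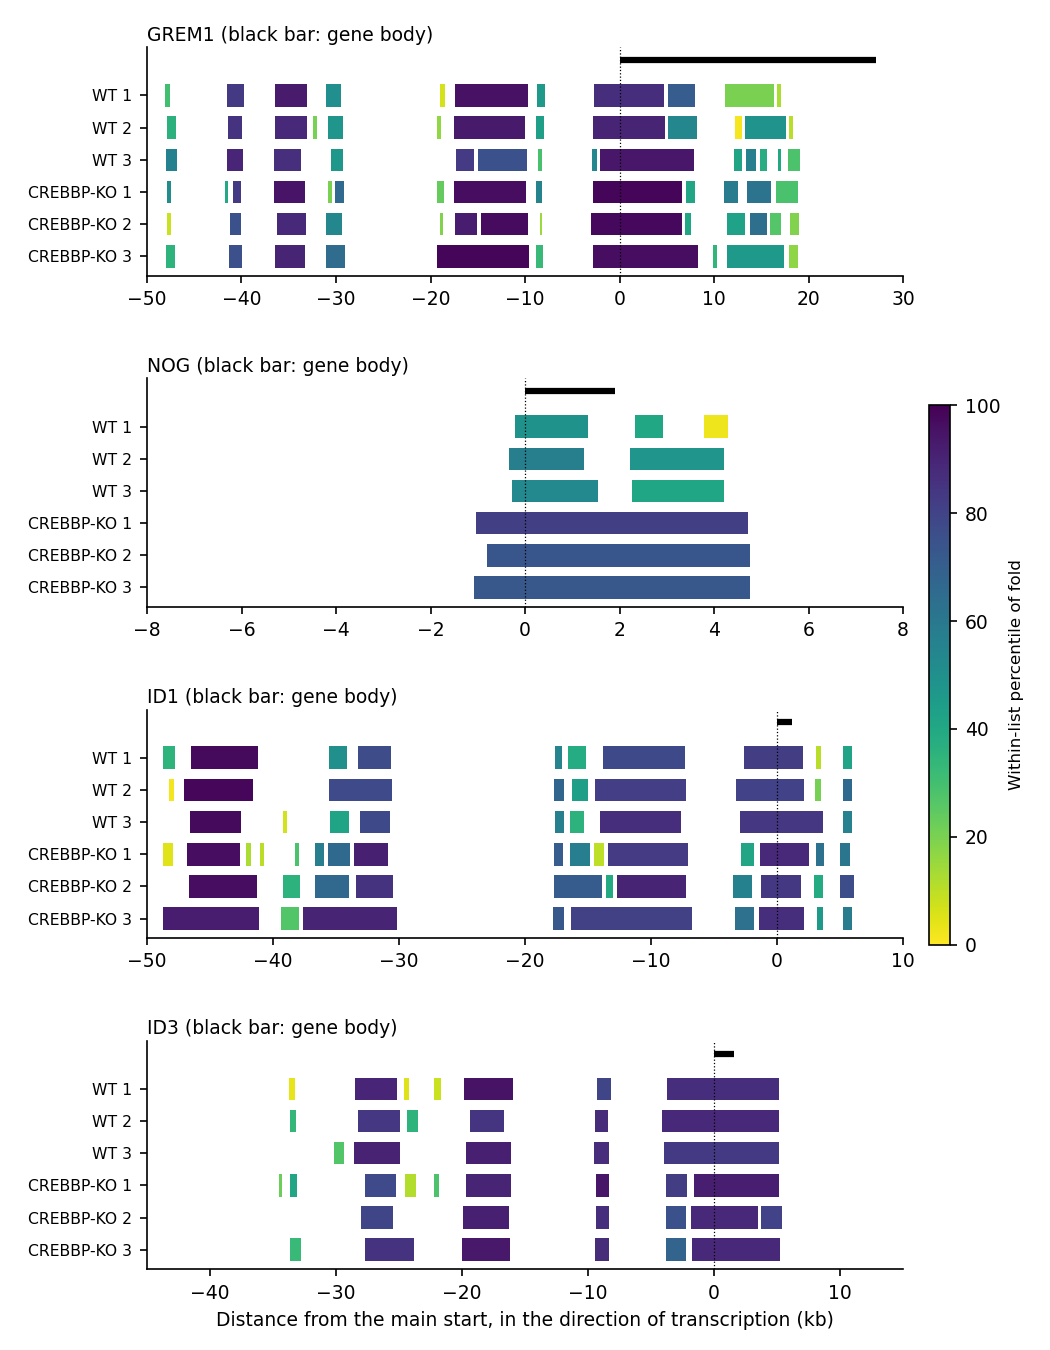
Peaks of each library around GREM1, NOG, ID1 and ID3, drawn to scale by distance from the main start (horizontal axis, kb, in the direction of transcription) with 1 row per library. Shading gives the within-list percentile of the fold and the black bar the gene body. NOG has 1 continuous peak in each CREBBP-KO library and 2 or 3 peaks in each WT library, while ID1 and ID3 have a break upstream of the start in each CREBBP-KO library and none there in WT.

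Of the 6 promoters, BMPR1A (5.28 ± 0.108 kb in WT and 5.51 ± 0.108 kb in CREBBP-KO) and NOG (1.65 ± 0.152 and 5.72 ± 0.146 kb) had wider peaks in all 3 CREBBP-KO libraries, and ID1 (5.51 ± 0.967 and 3.53 ± 0.336 kb) and ID3 (9.13 ± 0.178 and 6.34 ± 0.883 kb) narrower ones (SD, n = 3 each; exact permutation test, p = 0.1 for each of the 4). GREM1 (8.36 ± 1.36 and 10.1 ± 0.911 kb, p = 0.3) and ID2 (3.17 ± 0.559 and 3.54 ± 0.268 kb, p = 0.4, exact permutation test) overlapped. Among all coding genes with a promoter peak in all 6 libraries, 15.5% were wider and 7.05% narrower in this sense, and the median width was 2.60 kb in WT and 2.70 kb in CREBBP-KO.

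Counted as separate peaks inside the tested intervals, ID1 and ID3 had more in every CREBBP-KO library than in any WT library (2 of 30 tested intervals, beside 1.3% of all tested), and NOG fewer (1 of 30, beside 0.637%). The widths at ID1 and ID3 rest on the short breaks. When peaks of a library less than 1 kb apart were joined, an alternative chosen after seeing the data, ID3 was 8.94 to 9.28 kb wide in WT and 8.93 to 9.19 kb in CREBBP-KO and ID1 overlapped as well. NOG, in contrast, still measured 4.48 to 4.53 kb in WT and 5.56 to 5.84 kb in CREBBP-KO. Whether depth, which the lists do not give, or the threshold of the peak caller moves with these breaks was not tested.

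Away from the promoters, intervals moved in both directions, often within 1 window. GREM1 had 14 intervals, of which 9 were in all 6 libraries and 4 were tested. Its strongest upstream interval, at -12.68 kb (32698640 to 32708400, intergenic), had folds of 16.7, 14.2 and 9.78 in WT and 18.9, 20.5 and 24.7 in CREBBP-KO and ranked higher (shift 0.68, SE 0.20, adjusted p = 0.013 by limma). The call was lost without WT 3 (shift 0.39), the lowest library, without CREBBP-KO 3 (0.55), the highest, and with no trend in limma (adjusted p = 0.063). At -40.4 kb (32676226 to 32678221), inside the neighbouring gene SCG5, folds were 9.86, 10.4 and 12.7 in WT and 9.00, 7.16 and 7.62 in CREBBP-KO, and the interval ranked lower (shift -0.72, SE 0.22, adjusted p = 0.013 by limma). This call was lost without WT 3 (-0.58) and without CREBBP-KO 2 (-0.62). A further interval at -35.51 kb, also in SCG5, had overlapping folds of 14.2, 11.7 and 11.2 in WT and 16.3, 12.1 and 13.8 in CREBBP-KO and a shift of 0.05.

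BMPR1A (chromosome 10, 86756596 to 86932825, plus strand), by far the longest of the 10 genes, held 52 of the 99 intervals, 18 of them in all 6 libraries and 23 in 1 library alone. Its most changed interval was the intronic one at 22.63 kb (86778311 to 86780769), with folds of 7.33, 5.75 and 5.86 in WT and 3.41, 2.77 and 3.56 in CREBBP-KO. The percentile was 67.7 ± 5.55 in WT and 28.2 ± 14.3 in CREBBP-KO (SD, n = 3), and the shift of -1.82 (SE 0.31, adjusted p = 0.00015 by limma) was the largest of the 30 tested intervals. It entered the test through its WT folds alone, and without a fold filter its shift was -1.56 (SE 0.31) and still called. The next tested intron interval, at 30.12 kb (86784357 to 86787989), had folds of 8.16, 10.3 and 7.48 in WT and 4.95, 6.79 and 6.28 in CREBBP-KO and also ranked lower (shift -0.94, SE 0.28, adjusted p = 0.011 by limma). Its folds did not overlap between the groups. This interval too entered the test through its WT folds alone, and without a fold filter its shift was -0.60 (SE 0.19) and still called. The call was lost when ranked by -log10 p (-0.49), without WT 2 (-0.77) and without CREBBP-KO 1 (-0.70), in alternatives run after its values were seen. Of all 3721 intervals that entered through WT alone, 64.36% ranked lower and 0 higher. The other 7 tested distal intervals of this window were not called, with shifts from -0.25 to 0.39. They include the distal interval with the highest folds, at -44.94 kb inside LDB3, at 11.7, 11.4 and 14.3 in WT and 16.8, 16.3 and 16.0 in CREBBP-KO (shift 0.30, SE 0.17, adjusted p = 0.17 by limma). At the far end of the window, the shared promoter of ADIRF and MMRN2 ranked higher (shift 0.50, SE 0.18, adjusted p = 0.030 by limma), a call that was lost in 5 of 15 alternative fits.

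Around the ID genes the called distal intervals lay far upstream. At ID1 the interval at -32.62 kb (31567684 to 31575150), inside HM13 and its antisense gene HM13-AS1, had folds of 8.04, 8.09 and 8.43 in WT and 13.1, 10.6 and 13.8 in CREBBP-KO, with no overlap, and ranked higher (shift 0.63, SE 0.20, adjusted p = 0.016 by limma). Ranked by -log10 p the shift was 0.06, and without CREBBP-KO 1 (0.56) or CREBBP-KO 3 (0.56) the call was lost. The first interval upstream of the ID1 promoter, at -9.29 kb (31587539 to 31598518), had overlapping folds of 8.27, 9.25 and 11.3 in WT and 8.73, 13.2 and 9.18 in CREBBP-KO and a shift of 0.002. The promoter of HM13 itself, in the same window, ranked lower (shift -0.44, SE 0.17, adjusted p = 0.048 by limma) in a call that was lost in 10 of 15 alternative fits.

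At ID2 the intergenic interval at -48.27 kb (8632275 to 8635523) had folds of 5.96, 7.40 and 6.12 in WT and 10.3, 7.96 and 9.61 in CREBBP-KO, and ranked higher (shift 0.64, SE 0.25, adjusted p = 0.047 by limma). This call was lost in 9 of 15 alternative fits, among them the one with a replicate block (adjusted p = 0.057, with 0.032 to 0.17 over all alternatives). The strongest distal interval of ID2, at -19.63 kb, had folds of 10.9, 9.56 and 7.71 in WT and 11.3, 6.68 and 11.1 in CREBBP-KO, which overlap.

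At ID3 the interval at -25.96 kb (23583001 to 23588099), inside the non-coding RNA gene MDS2, had folds of 12.5, 9.97 and 13.0 in WT and 7.26, 8.30 and 11.1 in CREBBP-KO. These overlap, and the interval ranked lower (shift -0.68, SE 0.22, adjusted p = 0.017 by limma), a call that was lost without WT 1 (-0.63), WT 3 (-0.58), CREBBP-KO 1 (-0.53) or CREBBP-KO 2 (-0.63). The strongest distal interval of ID3, at -18.3 kb, had folds of 16.3, 10.1 and 13.5 in WT and 12.3, 14.0 and 16.7 in CREBBP-KO, with a shift of -0.04.

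Over the 10 windows, 8 intervals overlapped a promoter of the 10 genes, 5 a promoter of another gene and 86 neither. Peaks of all 6 libraries were found in 46 intervals, of which 30 had the fold needed for the test and 16 had not, and 33 of the 99 intervals came from 1 library alone. Of the 30 tested, 6 ranked higher and 6 lower in CREBBP-KO, beside 18.6% and 18.7% of all 34864 tested intervals (37.3% in either direction). The share called was thus near that of the genome, and the median shift was 0.06 for the 30 intervals and 0.02 for all. Of the 20 distal intervals, 3 ranked higher and 5 lower, beside 14.9% and 23.6% of the 23294 tested intervals away from promoters (38.5% in either direction). Percentiles in all 3 CREBBP-KO libraries were above all 3 WT libraries in 10 of 30 intervals and below in 5, beside 34.2% and 15.2% of all tested. The fold filter was passed in both genotypes by 25 of the 30 intervals, in WT alone by 2 and in CREBBP-KO alone by 3. Of the 25, 5 ranked higher and 4 lower, beside 15.5% and 15.75% of the 26259 such intervals of the genome. The calls that held in every alternative fit that gave a value were those of the GREM1 promoter, the NOG promoter, the BMPR1A interval at 22.63 kb and the ID4 interval, among the 12 called intervals. Of these, the NOG promoter and the BMPR1A interval entered the test through 1 genotype alone, which favours a call in that direction. The BMPR1A interval had no value at a -log10 q of at least 5 or with lists of equal length, and the GREM1 promoter none with summit windows.

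**Figure D3:**
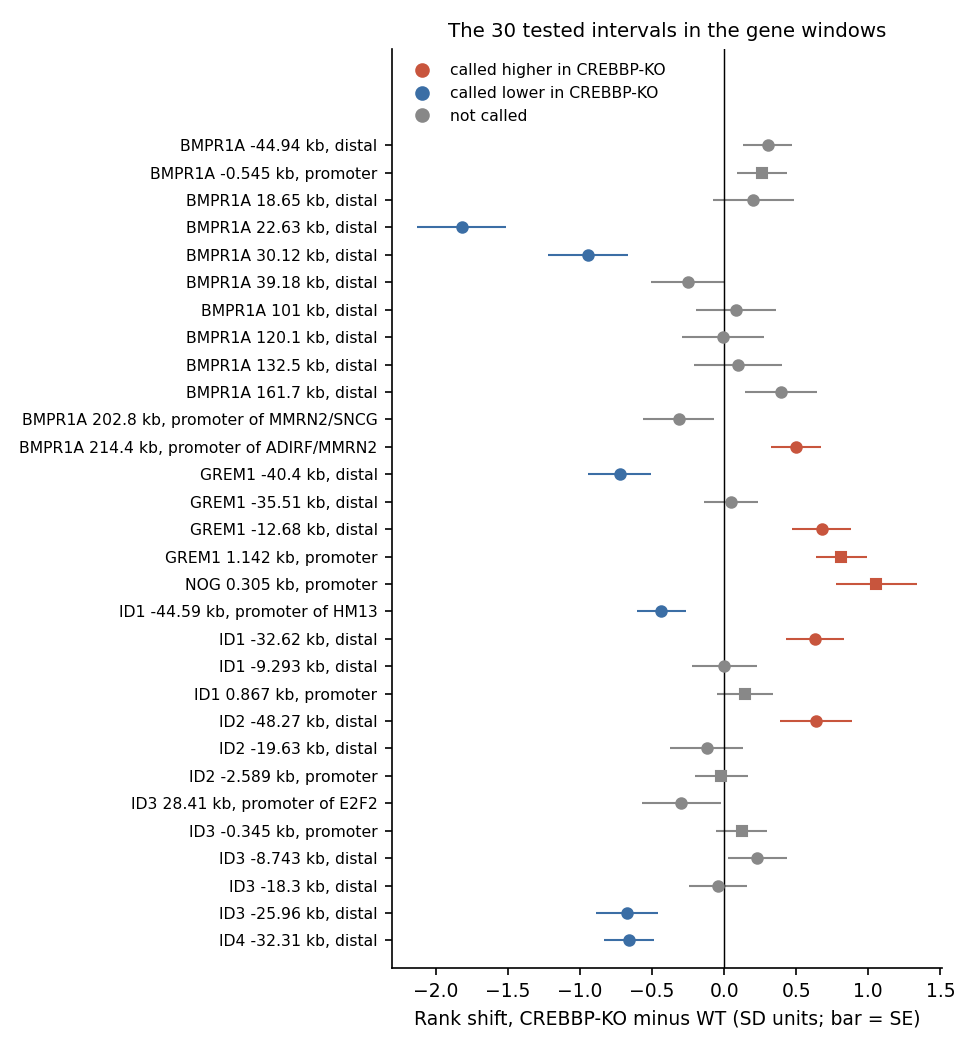
Rank shift of the 30 tested intervals (horizontal axis, CREBBP-KO minus WT in SD units of normal scores, with 1 SE), named by gene and distance from the main start, with squares for promoters of the 10 genes and circles for other intervals. The shifts run from -1.82 at the intronic interval of BMPR1A to 1.06 at the NOG promoter, and 6 are called higher, 6 lower and 18 neither.

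The number of peaks in the 10 windows was 74, 69 and 65 in WT and 94, 81 and 72 in CREBBP-KO (exact permutation test, p = 0.2). The mean was 18.75% higher in CREBBP-KO, beside 15.81% for the whole lists. BMPR1A had 29, 25 and 23 peaks in WT and 37, 31 and 33 in CREBBP-KO, and the groups were separate (exact permutation test, p = 0.1). The sequence these BMPR1A peaks covered overlapped, at 36.9, 37.6 and 34.5 kb in WT and 39.6, 36.6 and 44.9 kb in CREBBP-KO (exact permutation test, p = 0.3). How often the windows of other genes separate in peak number or covered sequence was not computed. ID2 had 6, 7 and 5 peaks in WT and 8, 8 and 7 in CREBBP-KO, where WT 2 equalled CREBBP-KO 3, and the sequence they covered was 9.31, 9.84 and 8.40 kb in WT and 11.6, 12.0 and 13.1 kb in CREBBP-KO (exact permutation test, p = 0.1). The windows of GREM1, ID1, ID3, ID4 and BMP2 overlapped in both measures.

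Among 48 other genes of the pathway, 32 had a promoter peak in all 6 libraries, 5 in some and 11 in none. The ligands were again the least marked, with 7 of 10 at no peak and GDF5 alone at a peak in all 6 (percentile 99.6 ± 0.113 in WT and 99.2 ± 0.350 in CREBBP-KO, SD, n = 3). A tested interval of GDF5, 35453931 to 35456522 on chromosome 20, reaches well past the gene, which spans 35433347 to 35454746. Whether promoter peaks of this list are shared with neighbouring genes was not examined, so the GDF5 peak may not belong to GDF5. All 6 SMAD genes and 9 of 10 receptor and co-receptor genes had a promoter peak in all 6 libraries. Of 26 genes with a tested promoter interval, 11 ranked higher, 1 lower and 14 were not called, beside 25.9% higher and 8.98% lower among all tested promoter intervals, and their median shift was 0.35, beside 0.20 for all of them.

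Among the higher ranked were RGMB, a BMP co-receptor (shift 1.09, SE 0.19, adjusted p = 0.00016), ACVR2A, a type II receptor (shift 1.01, SE 0.19, adjusted p = 0.00030), SMAD1, a receptor-regulated SMAD (shift 0.99, SE 0.17, adjusted p = 0.00014), and BMPER, a secreted BMP-binding protein (shift 0.94, SE 0.19, adjusted p = 0.00076, all by limma). At SMAD1 the promoter folds were 11.1, 10.6 and 12.3 in WT and 20.7, 23.6 and 19.7 in CREBBP-KO, and at BMPER 7.56, 8.13 and 8.97 in WT and 15.3, 16.1 and 13.3 in CREBBP-KO, without overlap in either. The one gene that ranked lower was ACVR1, a type I receptor (shift -0.49, SE 0.18, adjusted p = 0.037 by limma), whose folds of 14.0, 13.7 and 11.8 in WT and 12.6, 14.1 and 12.0 in CREBBP-KO overlapped. ACVR1, GDF5, SMAD4 and NBL1 had 2 tested promoter intervals each, and the shift and call of 1 of them stand for the gene. The counts by gene are thus not strictly like the shares over all promoter intervals. By role, 6 of 9 tested inhibitors, 2 of 5 SMADs, 2 of 9 receptors, 1 of 2 targets and 0 of 1 ligand ranked higher, to be read beside the 25.9% of all tested promoter intervals. The inhibitors were BMPER, NBL1, CHRDL2, FSTL3, FST and SMURF1, of which the first 5 are secreted and SMURF1 is a ubiquitin ligase of SMADs. FST and FSTL3 bind activins more tightly than most BMPs. SMAD6 and SMAD7, which also inhibit the pathway, were counted as SMADs. Of these, SMAD7 was not called (shift 0.20, SE 0.22, adjusted p = 0.49 by limma) and SMAD6 was not tested. The alternative fits were not run for these genes, and the list was chosen with earlier results of these data known.

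**Figure D4:**
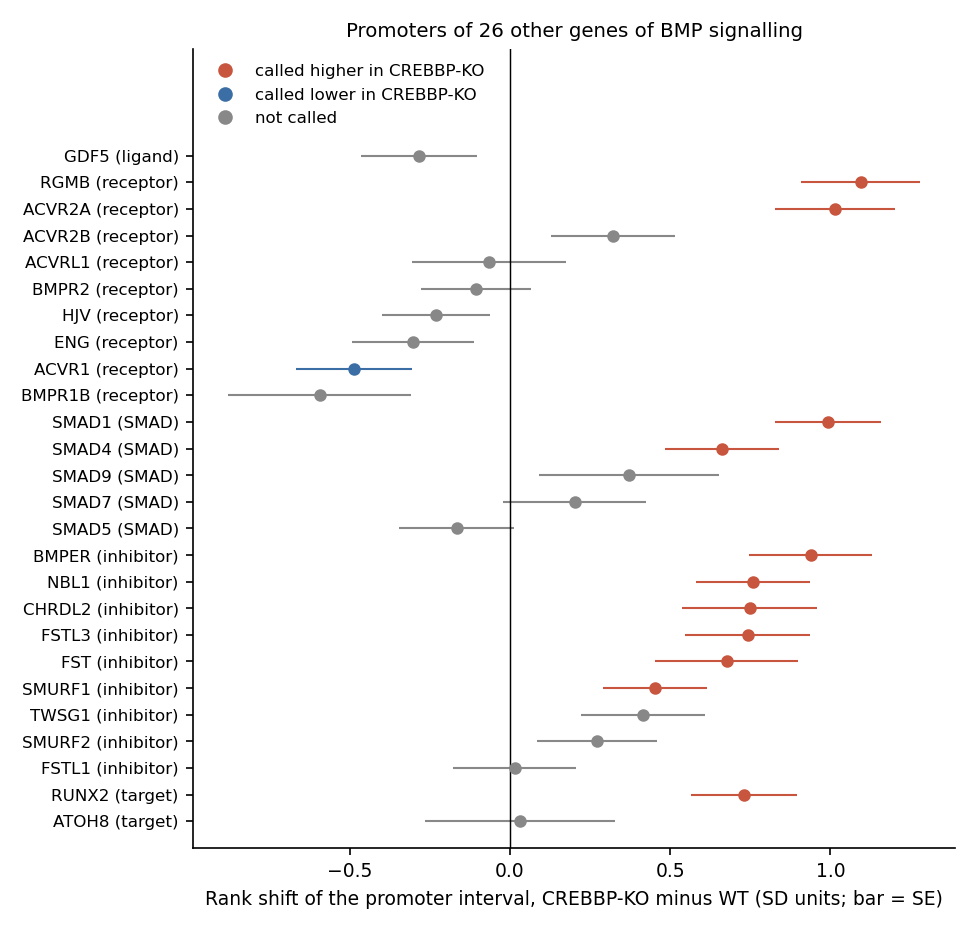
Rank shift of the promoter interval (horizontal axis, CREBBP-KO minus WT in SD units, with 1 SE) of the 26 other pathway genes that were tested, grouped by role and sorted by size within a role. Inhibitors lie at or above 0, from 0.02 at FSTL1 to 0.94 at BMPER, and receptors on both sides, from -0.59 at BMPR1B to 1.09 at RGMB.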

How the data were processed

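The peak lists were deposited as 1 list per H3K27ac library. Per the methods, the authors ran the nf-core ChIP-seq pipeline on hg38, with MACS2 in narrow mode as peak caller. The labels name BWA as the aligner. Whether the lists precede the downsampling described in the methods is not given in the sources used here. The deposited fold is a linear ratio over local background, and 2 deposited columns hold the -log10 p-value and -log10 q-value of each peak, with q of 0.05 or less. The inputs were not analysed here.

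Peaks that overlapped or touched were merged over the 6 lists. Intervals were ranked within each library by their highest fold, and normal scores of the ranks were fitted with limma 3.58.1 (lmFit, eBayes with trend, R 4.3.3), as CREBBP-KO minus WT. P-values were adjusted over all 34864 tested intervals by the Benjamini-Hochberg method. Promoters lay within 1 kb of a protein-coding start (GENCODE release 44). Two-sided exact permutation tests served for promoter percentiles, peak widths and peak numbers. Python 3.11.15, pandas 2.3.3 and bedtools 2.31.1 were used. The code was tested on simulated data.

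The genes, the pathway and marker lists and the tests were chosen with earlier results of these data known. Of each gene, the text names its promoter intervals, its distal interval with the highest mean percentile, its called distal interval with the largest shift in each direction, called intervals at promoters of other genes and intervals found in 1 genotype alone. From the pathway list it gives values for up to 4 called genes in each direction. The comparison of peak shape, the other BMPR1A interval and other features outside this rule were chosen after their values were seen. Alternatives to the filter, ranking, model, merging, list length and window were run, also with 1 library at a time left out. The study's DiffBind test needs reads and was not repeated.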

Additional observations from a re-analysis of the deposited data

How the results depend on the processing

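With 6 intervals called higher and 6 lower, the numbers were 3 higher when ranked by -log10 p, 3 and 2 with windows of 20 kb and 11 higher with windows of 100 kb. At an adjusted p under 0.0001 by limma, an alternative added after seeing the data, they were 0 and 0. The study sets this false discovery rate together with a fold-change cut, on read counts. Neither the cut nor read counts were used here. At an unadjusted p under 0.05 limma gave 6 and 6, and the lowest adjusted p was 0.00015. Leaving out 1 library gave 2 to 6 higher and 3 to 5 lower. The number was 3 higher without CREBBP-KO 1, 2 higher without CREBBP-KO 3, and 3 lower without WT 3 or without CREBBP-KO 2. Leaving out 1 library gave a median shift of 0.02 to 0.17 and a difference of 7.17 to 18.2 in peaks per library. Ranked by -log10 p the median shift was -0.04, and with log2 folds no median was computed, as the scale differs. The GREM1 promoter had no value with summit windows, and the BMPR1A interval at 22.63 kb had none at a -log10 q of at least 5 or with lists of equal length.

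Several small, uncalled values changed sign. Ranked by -log10 p, shifts were -0.13 for ID1 at -9.29 kb, 0.14 for ID2 at -19.63 kb and -0.14 for the ID3 promoter. With log2 folds they were 0.012 for the ID2 promoter and 0.033 for ID3 at -18.3 kb. Leaving out 1 library gave -0.21 to 0.17 for ID1 at -9.29 kb, -0.32 to 0.21 for ID2 at -19.63 kb, -0.28 to 0.16 for ID3 at -18.3 kb and -0.12 to 0.063 for the ID2 promoter. The percentile difference was -0.29 for ID2 with lists of equal length and -0.23 for ID3 by -log10 p, and the width difference at GREM1 was -0.01 kb with peaks less than 1 kb apart joined. The cause was not tested.

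Same-numbered libraries did not deviate together (correlations 0.01, 0.01 and 0.03), so the main fit did not pair them. These correlations cannot show whether same-numbered libraries were grown or processed together. A replicate block gave 5 intervals higher and 6 lower, with a median shift of 0.06.

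The lists hold no counts, so depth is unknown, and the lists give no value for an interval under the threshold of the peak caller. With 3 libraries a group, the exact tests cannot pass 0.1. Whether the CREBBP-KO libraries come from a single clone or a pool of clones is not clear from the sources used here.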
